A study of Rattus norvegicus with 6 samples.

Results

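The genes described here are 10 heat shock genes of rat nucleus pulposus cells (NPCs): the transcription factor Hsf1, the cytosolic chaperones and co-chaperones Hspa8, Hsp90aa1, Hsp90ab1, Hsph1, Dnajb1, Bag3 and Hspb1, and the mitochondrial chaperonin pair Hspd1 and Hspe1. They were taken by gene symbol from the combined table of raw counts, and the rule that picks them uses no measured value, although earlier results of these data were known when the genes were chosen. All 10 were among its 20264 rows, and all 10 were among the 11426 genes with enough counts to be tested. RNA-seq was done on 6 libraries of primary NPCs from the tails of wild type male Sprague-Dawley rats, and each of the groups TBHP and TBHP+FGF21 had 3. Both groups received the oxidant tert-butyl hydroperoxide (TBHP), which the study used to make the cells senescent, and the TBHP+FGF21 group also received recombinant rat FGF21, a secreted metabolic hormone. No library of cells without TBHP was analysed here, so the comparison is of FGF21 within oxidant-treated cells and does not show what TBHP does to these genes. The treatment labels name FGF21 for replicate 1 of the TBHP+FGF21 group, FGF22 for replicate 2 and FGF23 for replicate 3, while the protocol and the design text name FGF21 for the whole group, and this grouping was used. The libraries are called biological replicates, but the animals or cultures behind each are not given, so the p-values measure the spread between these libraries.

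Heat shock proteins keep other proteins folded. HSF1 is held inactive in unstressed cells, and after heat, oxidants or other damage to proteins it trimerizes and binds heat shock elements, arrays of short inverted repeats in the promoters of chaperone genes. HSP70 proteins bind unfolded stretches in a cycle that J-proteins start and nucleotide exchange factors end, HSP90 proteins act later on kinases, receptors and other clients, small heat shock proteins hold unfolded proteins in a form that can be refolded, and in the mitochondrial matrix HSP60 forms a folding chamber that HSP10 closes. In intervertebral discs the cells live under load, osmotic stress and low oxygen, conditions in which chaperones are needed.

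Heat shock elements were searched for in the RefSeq promoters of the members (GRCr8, 250 bases before to 50 bases after the start), since their shared factor Hsf1 is itself a member. The loose form, 2 alternating repeats, was GAANNTTC or TTCNNGAA, and the strict form was the same with a further repeat (NNGAA or NNTTC), 3 in all. Each form holds its own reverse complement, so both strands were covered, and each strict match also holds loose matches. A promoter was listed for 8 members, and none was used for Hsf1 and Hsp90aa1. The strict form was found in 4 of these 8 promoters and in 0.798% of 33469 promoters, and the loose form in 7 of the 8 and in 15.9% of all. Position 0 is the first transcribed base, and capitals mark the overlapping matches. Hspd1 and Hspe1 lie head to head on chromosome 9 with starts 290 bases apart in the promoter table, and the same 18 bases hold the element of both, read on opposite strands, at positions -65 to -48 of Hspe1 and -242 to -225 of Hspd1. The whole RefSeq span of Hspd1 reaches past that table start and the element to the start of Hspe1, so for the outermost start of Hspd1 the element lies within the gene:
Hspe1 (chr9:64084257-64084284, + strand): ctcggTTCTAGAACCTTCCGGAAggccc
Hspd1 (chr9:64084257-64084284, - strand): gggccTTCCGGAAGGTTCTAGAAccgag
The other strict matches were in Hspa8 (positions -213 to -201 and -55 to -43) and Hsph1 (positions -36 to -24):
Hspa8, distal (chr8:50080293-50080321, + strand): gcgagcgtGAAAGTTCCAGAAcgctgcgg
Hspa8, proximal (chr8:50080451-50080479, + strand): cggaacccTTCTGGAAGGTTCtaagacag
Hsph1 (chr12:10427324-10427352, + strand): gccgcagaTTCTGGAAAGTTCtcctcagt
Only loose matches were found in Hspb1 (positions -129 to -122 and -109 to -102), Bag3 (positions -132 to -125) and Dnajb1 (positions -11 to -4 and 17 to 24), of which the nearer one of Hspb1 and that of Bag3 are shown for comparison:
Hspb1 (chr12:26432395-26432418, - strand): tgggggcaGAACCTTCctggccct
Bag3 (chr1:192533320-192533343, + strand): tgggaccaGAAGTTTCtagccggc
Neither form was found in the window of Hsp90ab1. These matches describe the letters of the reference and not binding of HSF1, which was not measured.

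The libraries held 18277732 to 22426190 counts. The root mean square difference in log2 CPM (counts scaled to a common library size) over all tested genes was 0.278 to 0.285 between replicate 2 of the TBHP+FGF21 group and each TBHP library, and 0.361 and 0.412 between it and replicates 1 and 3 of its own group. Replicates 1 and 3 of the TBHP+FGF21 group differed by 0.300 from each other. Replicate 2 is the library whose treatment label names FGF22, and why it lies nearer to the TBHP libraries was not tested. It is called library F2 below, and results are given with and without it. Its mean difference from the other 5 libraries was the lowest of the 6 (0.324) and that of TBHP+FGF21 replicate 3 the highest (0.396). Leaving out library F2 thus takes away the treated library most like the TBHP group, and 867 genes rather than 1 then had an adjusted p under 0.05. Library F2 is set apart here by these same values, so the p-values without it are descriptive. Reads in the ambiguous class made up 2.04%, 2.09% and 2.01% of the reads in TBHP replicates 1 and 2 and library F2 and 1.72% to 1.83% in the other 3, and multimapping reads made up 6.86% to 7.02% and 6.27% to 6.64%. Of the defining notochordal markers, Tbxt, Noto and Shh had 0 counts in every library, while Acan lay between 2506 and 4355 CPM. Pax1 was at most 385 CPM, Foxf1 at most 62.1, Sox9 at most 11.3 and Col2a1 at most 0.782 CPM. The summed level of 13 nucleus pulposus and notochordal markers, mostly from Acan, was 2769 to 3217 CPM in the TBHP group. In the TBHP+FGF21 group it was 3140 to 4819 CPM. The 10 fibroblast and annulus markers, led by Col1a1, summed to 42857 to 47387 and 32529 to 44813 CPM in these groups. The 8 macrophage and leukocyte markers summed to 26.8 to 38.2 CPM, mostly from Cd14 (at most 35.6 CPM), and 3 of them, Ptprc, Adgre1 and Tyrobp, had 0 counts in every library. Col1a2 was at most 0.771 CPM beside Col1a1 at 27868 to 42463 CPM, and why was not tested. A level near 0 may therefore not mean absence of the RNA. The endothelial and erythroid markers summed to at most 1.10 CPM. The part of these differences between libraries in the results below was not tested.

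The heat shock genes were close in level in both groups. With all 6 libraries, 6 members lay above 0 and 4 below 0 on the log2 fold change scale (TBHP+FGF21 against TBHP), with a median of 0.021, against -0.0052 for all genes tested. No member had an adjusted p under 0.05 in the edgeR quasi-likelihood fit (Benjamini-Hochberg, over all genes), and neither DESeq2 nor limma-voom called any, against a background of 0.00875% of genes called by edgeR. This background is 1 gene, Sirt1. Among rows of whole counts above 0 in the combined table, it is also the only one that equals no row of the per-sample files. The 22 rows that are not whole were left out of that comparison. The rows of all 10 members were identical in both. At an unadjusted p under 0.05 there was 1 member, the lower Hspd1, against 8.92% of all genes and 4.29% in that direction. The groups did not overlap in CPM for 0 members, against 9.9% of all genes, 5% lower and 4.9% higher. The exact permutation test of each member's log2 CPM gave two-sided p values from 0.2 to 1, where 3 libraries against 3 allow no p below 0.1. Together the members took 0.359% ± 0.012 of the counts in the TBHP group and 0.371% ± 0.025 in the TBHP+FGF21 group (SD, n = 3, exact permutation p = 0.6). Most of these counts were from Hsp90ab1 and Hspa8 (30470 and 16364 of 63291 in TBHP replicate 1), so the sum says little of the other members. In bulk libraries, a change in the makeup of the cells and a change of RNA per cell cannot be told apart.

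Without library F2, 2 members, Hspd1 and Hspe1, were under an adjusted p of 0.05 by edgeR, both lower, against a background of 7.5% of 11559 genes, 3.72% lower and 3.78% higher. At an unadjusted p under 0.05 there were 3 members, all lower (Hspb1 joined the pair), against 23.6% of all genes, 12% lower and 11.6% higher. With the remaining libraries the CPM did not overlap for 6 members, 5 lower and 1 higher, against 39.8% of all genes, 19.4% lower and 20.4% higher.

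**Figure D1:**
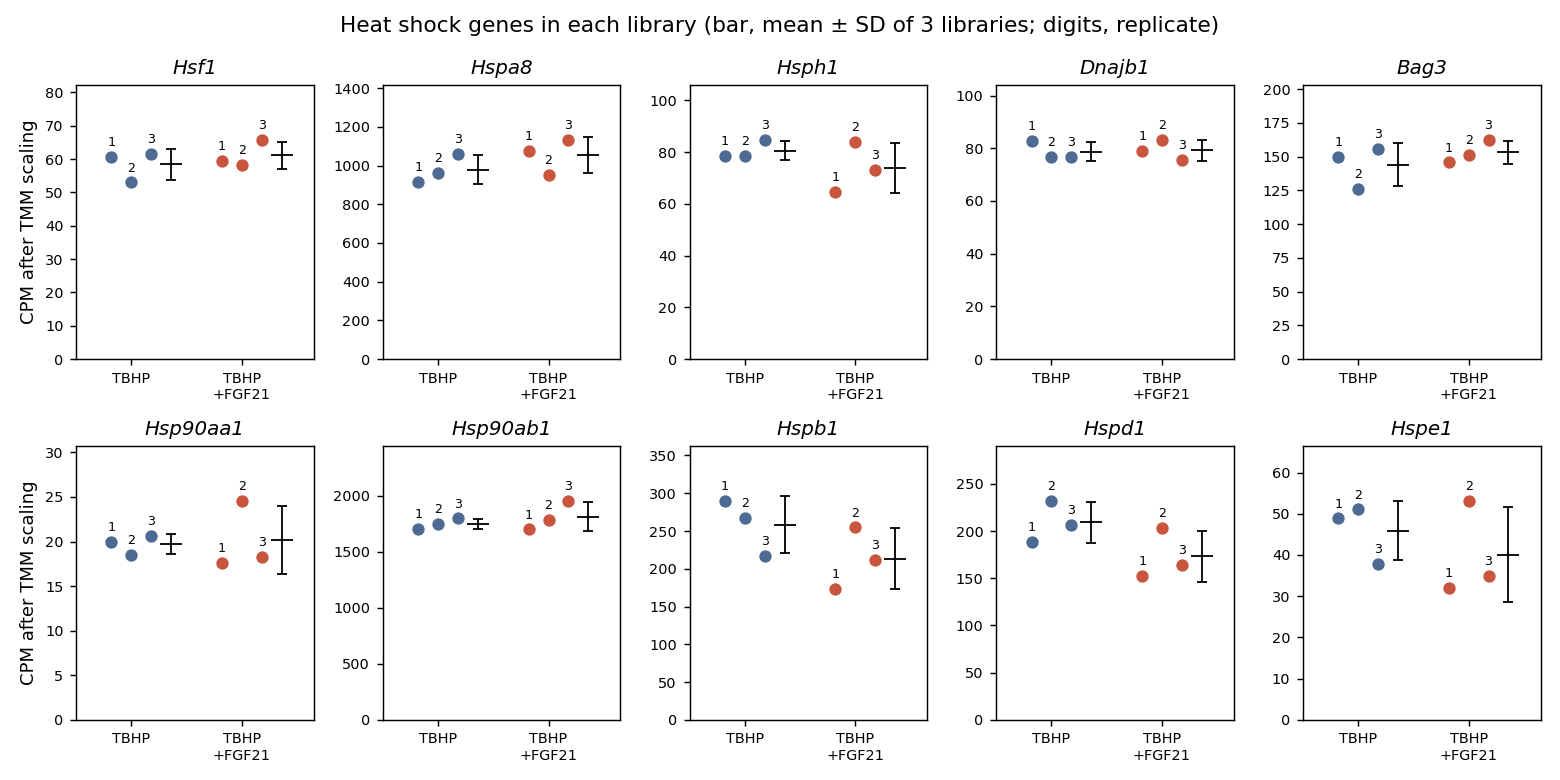
Level of each heat shock gene in each library, as CPM after TMM scaling on axes that start at 0, for the TBHP group (blue) and the TBHP+FGF21 group (red). Digits are replicate numbers and black bars the mean ± SD of 3 libraries. The groups overlap for all 10 genes, and replicate 2 of the TBHP+FGF21 group is the highest of its group for Hspb1, Hspd1, Hspe1, Hsph1, Dnajb1 and Hsp90aa1.

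Hsf1, the factor that drives the response, was at 60.6, 53.0 and 61.6 CPM in TBHP replicates 1, 2 and 3 and at 59.4, 58.3 and 65.8 CPM in the TBHP+FGF21 group. The ranges overlapped, and replicate 2 of the TBHP group was the lowest of the 6. On the log2 scale TBHP+FGF21 minus TBHP was 0.067 ± 0.098 (SE, edgeR adjusted p = 0.818). Transcript level says nothing of the trimerization or phosphorylation by which HSF1 is switched on.

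Of the HSP70 machine, Hspa8, the constitutive cytosolic HSP70, was at 914, 961 and 1062 CPM in the TBHP group and at 1077, 953 and 1133 CPM in the TBHP+FGF21 group. Replicates 1 and 3 of the TBHP+FGF21 group were the highest of the 6 and replicate 2 lay within the TBHP range. The difference of 0.11 ± 0.10 log2 units (SE, edgeR adjusted p = 0.719) was the highest of the members, and it was 0.18 without library F2 (adjusted p = 0.314) and 0.059 without TBHP+FGF21 replicate 3. Dnajb1, the J-protein that delivers clients to HSP70, was the steadiest member, at 82.8, 76.7 and 76.7 CPM against 79.0, 83.2 and 75.5 CPM. Its libraries spanned 0.14 in log2 CPM, and the groups differed by 0.0092 ± 0.089 log2 units (SE, edgeR adjusted p = 0.977).

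The 2 exchange factors of HSP70 among the members lay on opposite sides of 0. Hsph1, an HSP110 protein that releases ADP from HSP70, was at 78.4, 78.4 and 84.8 CPM in the TBHP group and at 64.5, 83.8 and 73.2 CPM in the TBHP+FGF21 group. Replicates 1 and 3 of the TBHP+FGF21 group were below every TBHP library and replicate 2 was not. Its difference was -0.13 ± 0.11 log2 units (SE, edgeR adjusted p = 0.681) and -0.22 without library F2 (adjusted p = 0.217), but -0.026 without TBHP+FGF21 replicate 1. Bag3, which links HSP70 and small heat shock proteins to selective autophagy, was at 149.8, 126 and 156 CPM in the TBHP group and at 146, 151 and 163 CPM in the TBHP+FGF21 group. The groups overlapped. The difference was 0.090 ± 0.10 log2 units (SE, edgeR adjusted p = 0.761), and it lay between 0.0014 without replicate 2 of the TBHP group and 0.16 without replicate 3 of that group.

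The HSP90 genes did not differ beyond their spread either. Hsp90ab1, the constitutive form, was at 1702, 1747.5 and 1797 CPM in the TBHP group and at 1699, 1786 and 1958 CPM in the TBHP+FGF21 group, a difference of 0.053 ± 0.096 log2 units (SE, edgeR adjusted p = 0.853). Replicate 3 of the TBHP+FGF21 group was the highest of the 6 and replicate 1 of that group the lowest. Hsp90aa1, the stress-inducible form, was at 19.9, 18.5 and 20.7 CPM in the TBHP group and at 17.6, 24.6 and 18.3 CPM in the TBHP+FGF21 group, where replicate 2 was the highest of the 6 and the other two the lowest. A difference of 0.032 ± 0.14 log2 units (SE, edgeR adjusted p = 0.943) turned to -0.13 without that library (adjusted p = 0.587). Not scaled by length, the counts of Hsp90aa1 were 1.13% ± 0.06 of those of Hsp90ab1 in the TBHP group and 1.12% ± 0.23 in the TBHP+FGF21 group (SD, n = 3, exact permutation p = 0.9). RefSeq lists 16 named pseudogenes of Hsp90aa1, 23 of Hsp90ab1, 33 of Hspa8, 20 of Hspd1 and 1 of Hspe1, so reads of these genes may have been lost to multiple matches, and their absolute levels are uncertain.

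The lowest fold changes were those of the small heat shock protein and the mitochondrial pair. Hspb1 (ENSRNOG00000023546), which encodes the small heat shock protein HSP27 that binds unfolded proteins and actin filaments, was at 290.4, 268 and 218 CPM in the TBHP group (mean 259 ± 37.3, SD, n = 3) and at 174, 255 and 212 CPM in the TBHP+FGF21 group (mean 213 ± 40.5, SD, n = 3). It had the widest range of the members, 0.74 in log2 CPM. TBHP replicates 1 and 2 and library F2 had the highest values. The same 3 libraries had the larger shares of ambiguous and multimapping reads. The difference was -0.28 ± 0.14 log2 units (SE, edgeR adjusted p = 0.559). Without library F2 it was -0.41 (adjusted p = 0.0540), just above the threshold, and it was -0.14 when replicate 1 of the TBHP+FGF21 group was left out.

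Hspd1 (ENSRNOG00000014525), which encodes HSP60, was at 188, 232 and 207 CPM in the TBHP group (mean 209 ± 22.1, SD, n = 3) and at 152, 204 and 164 CPM in the TBHP+FGF21 group (mean 173 ± 27.0, SD, n = 3). Replicates 1 and 3 of the TBHP+FGF21 group lay below every TBHP library, and replicate 2 lay between the TBHP values. TBHP+FGF21 was 0.828 times TBHP, or -0.27 ± 0.12 log2 units (SE, edgeR unadjusted p = 0.0460, adjusted p = 0.553). Without library F2 Hspd1 fell by 0.40 on the log2 scale (SE 0.11, edgeR adjusted p = 0.0362), and with any other library left out the adjusted p was above 0.05, with a difference of -0.18 without TBHP+FGF21 replicate 1 and -0.19 without TBHP replicate 2.

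Hspe1 (ENSRNOG00000051624), which encodes the lid protein HSP10, was at 48.9, 51.1 and 37.7 CPM in the TBHP group and at 31.9, 53.2 and 34.9 CPM in the TBHP+FGF21 group. Replicate 2 of the TBHP+FGF21 group was the highest of the 6, and replicates 1 and 3 were the lowest. The 3 highest libraries were again those with the larger shares of ambiguous and multimapping reads. With all libraries the difference was -0.20 ± 0.18 log2 units (SE, edgeR adjusted p = 0.697), and without library F2 Hspe1 fell by 0.45 on that scale (SE 0.13, adjusted p = 0.0445). It was -0.048 without TBHP+FGF21 replicate 1, -0.10 without replicate 3 of that group and -0.11 without TBHP replicate 2. The order of the libraries was not the same for the partners, since replicate 3 of the TBHP group stood above replicate 1 of that group for Hspd1 and below it for Hspe1. Hspd1 had 4.63 ± 0.82 times the counts of Hspe1 in the TBHP group and 4.43 ± 0.52 times in the TBHP+FGF21 group (SD, n = 3, exact permutation p = 0.9), a ratio that does not depend on scaling. The RefSeq spans of both genes overlap by a few bases at their starts, and the counting did not use strand.

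**Figure D2:**
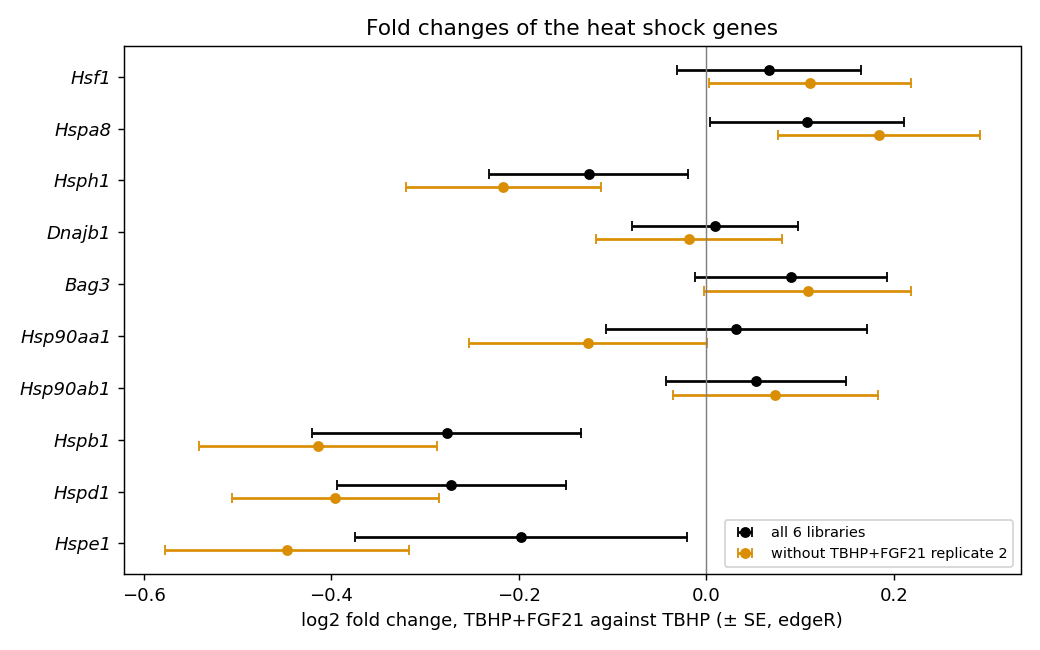
Log2 fold change of each heat shock gene, TBHP+FGF21 against TBHP, with the standard error from edgeR, for all 6 libraries (black) and for 5, leaving out TBHP+FGF21 replicate 2 (orange). Hspb1, Hspd1 and Hspe1 lie lowest in both, at -0.28, -0.27 and -0.20 and at -0.41, -0.40 and -0.45, while Hspa8 lies highest, at 0.11 and 0.18.

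The 4 members with a strict heat shock element did not share a direction. Hspd1, Hspe1 and Hsph1 lay below 0 and Hspa8 above 0. Over all tested genes with a listed promoter, 41 of 9226 held the strict form. Their median log2 fold change was 0.0057, and at an unadjusted p under 0.05 there were 2 higher and 3 lower (12.2%, against 8.69% of the 9226). None had an adjusted p under 0.05 by edgeR. Without library F2 an adjusted p under 0.05 was reached by 6 of the 41 (14.6%), among them Hspd1 and Hspe1, which share 1 element, by 71 of the 1048 with the loose form (6.77%) and by 7.10% of the genes with a listed promoter. With all libraries the 1048 genes with the loose form had a median of -0.0073, with 47 higher and 57 lower at an unadjusted p under 0.05 (9.92%).

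The other chaperone genes came from 10 hand-compiled lists of 137 genes, of which 123 passed the filter on counts. Over these the median log2 fold change was -0.062, with 35 above 0 and 88 below 0, where all genes had 5592 and 5834. None had an adjusted p under 0.05 by edgeR, and 9 had an unadjusted p under 0.05, 1 higher and 8 lower, or 7.32% against 8.92% of all genes. The number lower ranged from 1, without TBHP replicate 2, to 24, without library F2. Over all genes 123 of 11536 were lower at that p in the first of these fits and 1390 of 11559 in the second. In the fit without library F2 7 were called, 1 higher and 6 lower, which is 5.69% of 123, against 7.5% of all genes.

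Prefoldin, which hands new actin and tubulin chains to the TRiC/CCT chaperonin, had the lowest median of the lists, -0.42 over 4 tested genes of 6, and 3 of the 4 had an unadjusted p under 0.05, where 4.29% of all genes were lower at that p. This count was 0 without TBHP replicate 1, TBHP replicate 2 or TBHP+FGF21 replicate 3. It was 1 without TBHP+FGF21 replicate 1, and 4 without TBHP replicate 3 or library F2. Over all genes the number lower at that p also moved. It was 182 of 11559, 123 of 11536 and 110 of 11521 in the fits with 0, in that order. It was 155 of 11546 in the fit with 1, and 955 of 11562 and 1390 of 11559 in those with 4. Pfdn6 was at 63.2, 69.7 and 40.3 CPM in the TBHP group and at 33.5, 51.2 and 34.3 CPM in the TBHP+FGF21 group, so that its 3 highest libraries were those of Hspb1 and Hspe1. Pfdn6 differed by -0.54 log2 units (edgeR adjusted p = 0.553), Pfdn4 was at -0.50 and Pfdn1 at -0.34. All 8 tested TRiC/CCT subunits were below 0, with a median of -0.097, and the subunit gene Cct6a was lowest at -0.26 (unadjusted p = 0.0356 by edgeR).

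Among the HSP90 co-chaperones 14 of 18 were below 0, with a median of -0.046. Chordc1, a zinc-binding HSP90 partner, was at -0.46 and Sugt1, which bridges HSP90 to kinetochore and immune receptor clients, at -0.36 (unadjusted p 0.0100 and 0.0129 by edgeR). The groups did not overlap for either, against 9.9% of all genes, 5% lower. Other genes of the lists did not overlap too, in both directions, such as Canx lower and Hspa2 higher. In the other HSP70 and HSP110 genes the median was -0.093, and Hspa4l, an HSP110 relative of Hsph1, was at -0.38 (unadjusted p = 0.0159 by edgeR). The HSP70 exchange factors and co-chaperones had a median of -0.12, and Ttc1 was at -0.24 (unadjusted p = 0.0433 by edgeR).

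The only gene of the lists above 0 with an unadjusted p under 0.05 was Hspb7, a small heat shock protein best known from heart and skeletal muscle. It was at 91.4, 75.9 and 91.2 CPM in the TBHP group and at 154, 82.5 and 211 CPM in the TBHP+FGF21 group. Replicates 1 and 3 of the TBHP+FGF21 group were the highest, and library F2 lay within the TBHP range. The difference was 0.79 ± 0.24 log2 units (SE, edgeR adjusted p = 0.553), and without library F2 it was 1.09 (adjusted p = 6.06e-05). Without TBHP+FGF21 replicate 3 it was 0.46 (adjusted p = 0.973). The other 5 tested genes of the list of other small heat shock proteins, among them Hspbap1, lay between -0.31 and 0.17.

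No gene at an unadjusted p under 0.05 was found in 4 lists. The J-proteins had a median of -0.038 over 22 genes, with Dnajb6 at the smallest p (-0.19). The heat shock factors and their regulators had a median of -0.053 over 9, with Hikeshi, the nuclear import carrier of HSP70, at -0.23. For the other mitochondrial chaperones and proteases, the compartment of Hspd1 and Hspe1, the median was -0.092 over 20 genes, with Dnajc19 at -0.38 (unadjusted p = 0.0777 by edgeR). The mitochondrial HSP70 gene Hspa9, chosen as the usual partner of HSP60 after its values were seen, was at -0.13. For the ER chaperones, many of which are under the unfolded protein response, the median was -0.079 over 18, with Canx at -0.19.

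**Figure D3:**
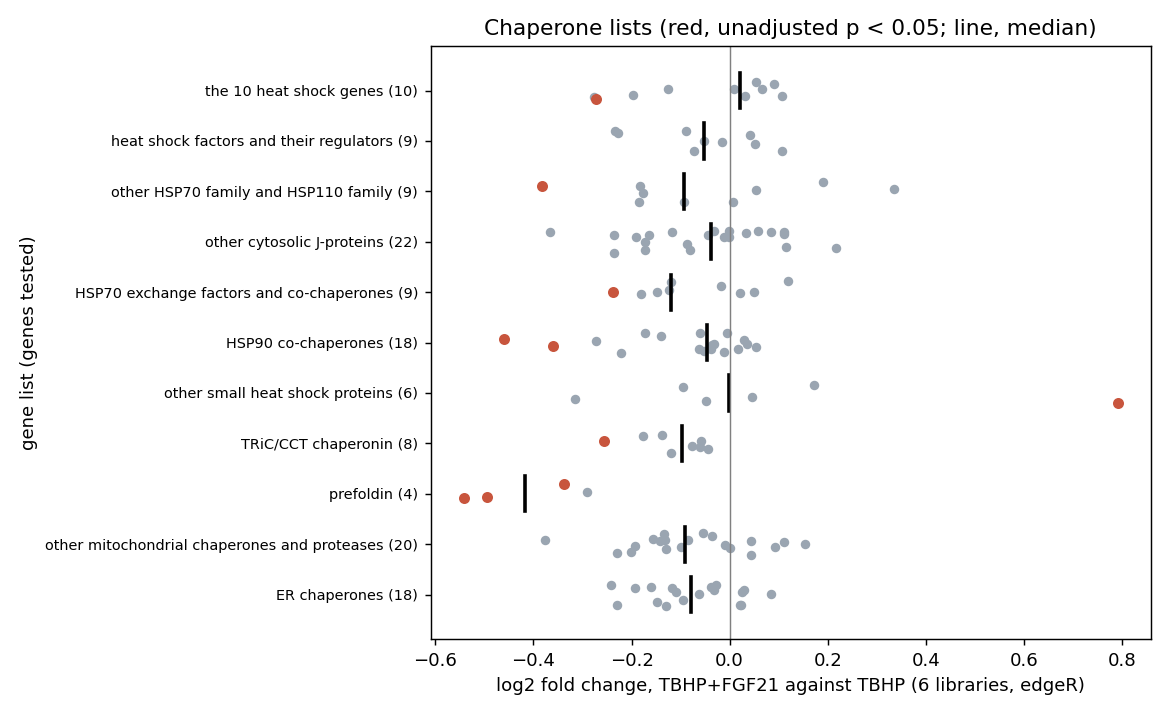
Log2 fold change (TBHP+FGF21 against TBHP, all 6 libraries, edgeR) of every tested gene of the 10 heat shock genes and of the 10 other chaperone lists, with the number tested in brackets. Black lines are list medians and red points have an unadjusted p under 0.05. Prefoldin has the lowest median, -0.42, and Hspb7 the highest value, 0.79.

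**Figure D4:**
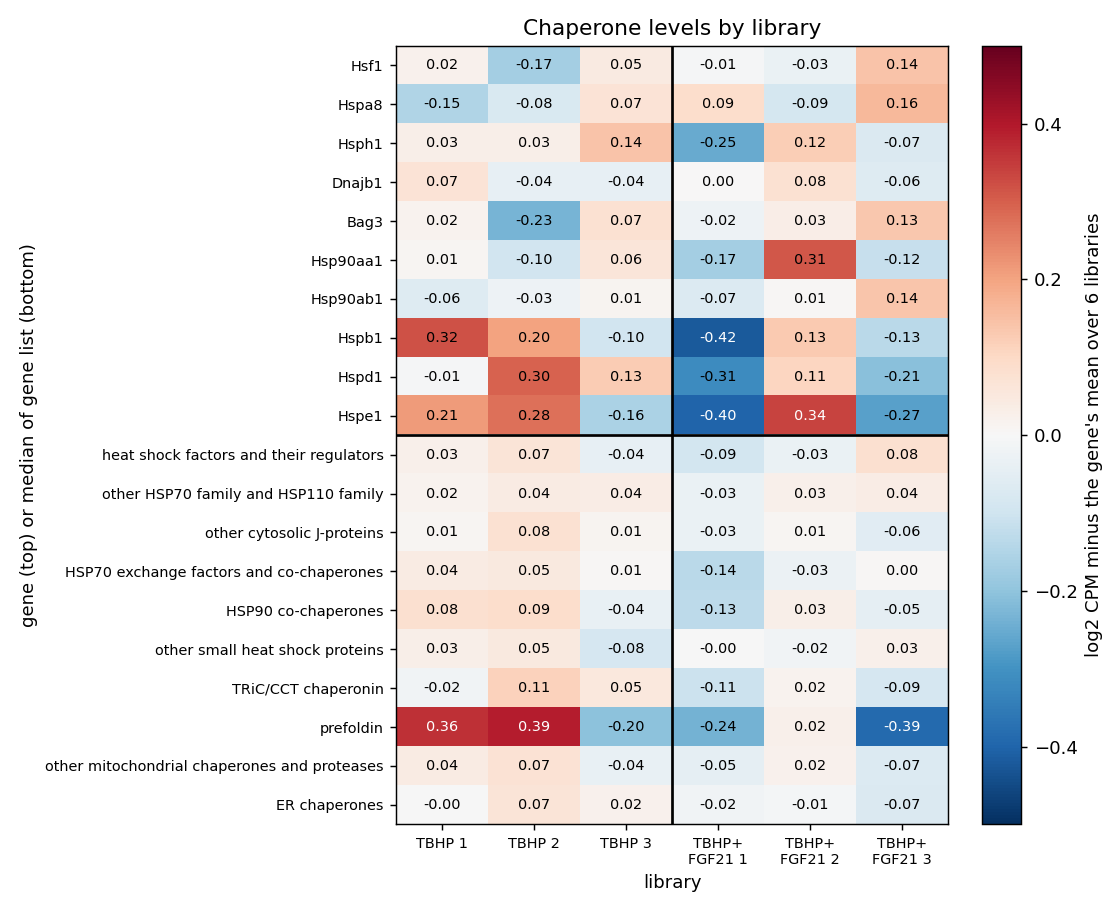
Mean-centred log2 CPM in each library for the 10 heat shock genes (above the line) and for the median of each other chaperone list (below it), with each value printed in its cell. Hspb1, Hspe1 and the prefoldin median are above 0 in TBHP replicates 1 and 2 and TBHP+FGF21 replicate 2, and below 0 in the other 3 libraries.

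Hspb1, the member with the widest range, was compared with every tested gene by the root mean square difference of mean-centred log2 CPM over the 6 libraries. Among the nearest genes outside the members were the ATP synthase subunit gene Atp5f1d (0.030), Id3, an inhibitor of basic helix-loop-helix factors (0.034), Comtd1 (0.036) and Sdf2l1, a gene of the ER chaperone network (0.045). Id3 was at 406, 374 and 294 CPM in the TBHP group and at 247, 373 and 299.5 CPM in the TBHP+FGF21 group, in the library order of Hspb1 but for replicate 3 of both groups. The nearest member was Hspe1 (0.12), which ranked 305 among all genes.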

How the data were processed

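The authors deposited a combined table of raw counts per gene symbol and per-sample raw counts per Ensembl identifier, unstranded and by strand. The combined table was handled as estimated counts, because 22 rows that the authors deposited are not whole, and these were rounded. The submitters' processing notes name STAR and featureCounts. Versions, genome build and annotation are not given in the sources used here. The strand columns had a ratio of 0.977 to 0.986, so strand was not used. The 10 members were linked to identifiers by identical counts. No pair of libraries agreed within sampling noise (chi-square per gene 7.02 or more).

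TBHP+FGF21 was compared with TBHP in edgeR 4.0.16 (R 4.3.3) with TMM, filterByExpr (minimum count 10, minimum total 15), group as the only term, glmQLFit, glmQLFTest and Benjamini-Hochberg adjustment over 11426 genes. The paper names no model for sequencing. Levels are CPM after TMM scaling, and 3 counts, the upper limit of a count of 0, are 0.134 to 0.164 CPM, for counting error only. The SE of a log2 difference is its size over the square root of the F statistic. Alternatives were DESeq2 1.42.0, its size factors, limma-voom (limma 3.58.1), other filters, the per-sample counts, the replicate block and leaving out each library. The fits were tested on simulated data. Named genes outside the members were those of each list with an unadjusted p under 0.05, otherwise the one with the smallest p, and the 5 most like the member of widest range, of which 1 is not reported here. The members and lists were chosen with earlier results of these data known. Promoter sequences are from RefSeq (GRCr8), and 8 of 10 members matched.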

Additional observations from a re-analysis of the deposited data

How the results depend on the processing

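With all libraries 1 gene was called at an adjusted p under 0.05, and 1019 had an unadjusted p under 0.05. The calls were 4 with the DESeq2 Wald test, 5 with no filter on low counts, 2 with the replicate block, and 0 with limma-voom and with either per-sample count column (996, 1082 and 1049 at an unadjusted p under 0.05). With 1 library left out they ranged from 0 to 867, the highest without library F2. The number of members called ranged from 0 to 2 and that of the other chaperone genes from 0 to 7 in these fits, the highest again without that library, and both were 0 under the 8 other alternatives. No member changed direction under those 8. With 1 library left out, 3 members did: Hsf1 ranged from -7.2e-05 to 0.12, Hsp90aa1 from -0.13 to 0.13 (-0.012 without replicate 2 of the TBHP group) and Dnajb1 from -0.019 to 0.053 (-0.011 and -0.00095 without replicates 2 and 3 of the TBHP group). The cause was not tested. Same-numbered libraries did not deviate together throughout (correlations of -0.12, 0.21 and 0.15 over 11426 genes), so the numbers were not taken as pairs. The replicate block left 0 members called, with 2 at an unadjusted p under 0.05. That p was reached by 1599 of 11426 genes with the block, against 1019 without it. With 3 libraries a group, differences of the size seen here, under 0.3 for every member, were within about 2 standard errors for 9 members.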
